A study of Mus musculus with 6 samples.

Results

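The galectin and S100 genes described here are Lgals1, Lgals3, Lgals9 and the galectin-binding glycoprotein gene Lgals3bp, together with S100a4, S100a6, S100a8, S100a9, S100a10 and S100a11. A gene was measured by a transcript cluster, the group of probes that the array sums into 1 signal, and a member was kept where the array's annotation gave its cluster that gene symbol alone. This held for 9 of the 10 members, among 30176 genes with a cluster of their own and 65956 clusters tested, and each of the 9 had exactly 1 such cluster. The cluster that carries S100a11 also carries 2 other gene symbols, so no value is given for S100a11.

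All hearts came from male wild-type C57/Bl6 mice, 1 week old when injected into the peritoneum with 4000000000000 viral genomes (vg) and killed 2 weeks later. AAV9-Rbm24 (3 hearts) carried the flag-tagged mouse open reading frame of the RNA-binding protein Rbm24 under a CMV promoter, and AAV9-GFP (3 hearts) carried green fluorescent protein. AAV9, a serotype of adeno-associated virus, infects cardiomyocytes preferentially, but the RNA was taken from whole left ventricle and thus from all of its cell types. Each heart had 1 Affymetrix Mouse Transcriptome Array 1.0, and all values are log2 signals on which a difference of 1 is a doubling.

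Galectins are lectins that bind beta-galactoside sugars on glycoproteins, inside cells and, after secretion, on cell surfaces and in the matrix. Galectin-3 is made in quantity by macrophages and is known from cardiac fibrosis. S100 proteins are small calcium-binding proteins of the EF-hand fold. S100a8 and S100a9 form calprotectin, a major cytosolic protein of neutrophils, whereas S100a4 and S100a6 are found in fibroblasts and many other cells, and S100a10 binds annexin A2 without needing calcium.

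The promoters of the only member past the adjusted threshold, Lgals3, and of S100a4 and S100a6, near neighbours on chromosome 3 with signals higher in every AAV9-Rbm24 heart, are shown to give the sequence context of these genes. They run from 250 bases before to 50 bases after the start site on the gene's strand, from RefSeq on GRCm38.p6. All of them lie on the plus strand, Lgals3 at chr14:47373610-47373909, S100a4 at chr3:90603520-90603819 and S100a6 at chr3:90612644-90612943. Capitals mark matches to the motifs searched.
Lgals3: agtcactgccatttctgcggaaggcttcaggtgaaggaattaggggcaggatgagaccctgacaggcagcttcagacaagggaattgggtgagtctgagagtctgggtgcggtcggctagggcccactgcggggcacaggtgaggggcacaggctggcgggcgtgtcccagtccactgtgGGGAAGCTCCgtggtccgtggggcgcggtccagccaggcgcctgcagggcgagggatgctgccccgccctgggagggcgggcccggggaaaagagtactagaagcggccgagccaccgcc
S100a4: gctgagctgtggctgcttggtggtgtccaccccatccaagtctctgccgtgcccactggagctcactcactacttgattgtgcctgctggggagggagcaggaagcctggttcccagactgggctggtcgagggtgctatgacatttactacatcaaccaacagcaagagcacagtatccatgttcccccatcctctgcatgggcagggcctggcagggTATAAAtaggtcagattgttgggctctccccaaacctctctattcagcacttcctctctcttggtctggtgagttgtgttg
S100a6: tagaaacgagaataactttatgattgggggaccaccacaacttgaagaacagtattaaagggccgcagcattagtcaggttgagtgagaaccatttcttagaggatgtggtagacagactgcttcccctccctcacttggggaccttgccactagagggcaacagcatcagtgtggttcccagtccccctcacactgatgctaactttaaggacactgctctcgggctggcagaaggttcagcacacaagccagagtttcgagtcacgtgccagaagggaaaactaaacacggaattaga

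Both strands of 8 member promoters from RefSeq were searched for AP-1 (TGANTCA), NF-kB, C/EBP and the TATA box (TATAAA). The capitals in Lgals3 are an NF-kB match from position -70 to position -61 relative to the start site, the only match among the 8 promoters, and 8.46% of 32851 promoters of this length held such a match. The capitals in S100a4 are a TATA box from position -31 to position -26. The letters TATAAA were also found in S100a8, from position -30 to position -25, and in S100a9, from position 1 to position 6. The S100a9 match begins at the start site and, unlike the other matches, does not lie before it. Counted anywhere in the window, 3 of 8 members held these letters beside 13.6% of all promoters. Lgals3bp had a C/EBP match from position -215 to position -207 (6.92% of all promoters). S100a11 held AP-1 matches from position -136 to position -130 and from position -38 to position -32 (7.81% of all promoters). The S100a6 and Lgals9 windows held none of these motifs. The matches are a description of the letters, and no binding was measured.

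Lgals3 was the only member that rose at the adjusted threshold. Its signals were 7.24, 7.42 and 7.50 in the AAV9-Rbm24 hearts, against 6.57, 6.59 and 6.62 in the AAV9-GFP hearts. The lowest AAV9-Rbm24 heart lay 0.63 above the highest AAV9-GFP heart, and the hearts of each group lay close together. The means were 7.39 ± 0.13 in AAV9-Rbm24 hearts and 6.59 ± 0.03 in AAV9-GFP hearts (SD, n = 3 each), a log2 fold change of 0.80 (standard error 0.10, 95% interval 0.55 to 1.04, adjusted p = 0.0353 from limma) or 1.74-fold. In whole ventricle, more cells of a type and more RNA per cell cannot be told apart. Lgals3 ranked 132 of all clusters by p. Its call was lost without each heart in turn (adjusted p = 0.0829 to 0.175 from limma), with the log2 fold change between 0.74 and 0.87. Its AAV9-GFP signals were dim, since only 2 of them exceeded the 95th percentile of 23 background probe sets on their array.

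Among all 9 members, 1 was higher at an adjusted p under 0.05 (0.241% of all clusters were) and none was lower (0.0258% of all clusters). At the thresholds of the study's methods, a 1.5-fold difference or more with p under 0.05 before adjustment, Lgals3, Lgals3bp and S100a6 were higher, 3 of 9 members beside 1.23% of all clusters, and none was lower, beside 0.552% of all clusters. With the methods' own analysis of variance in place of limma, or with array weights, 1 member met these thresholds, Lgals3, and the calls of Lgals3bp and S100a6 were lost. Of all clusters, 664 and 781 were higher at these thresholds in those 2 settings, against 813 in limma without weights. The unadjusted p was under 0.05 for 4 members in limma, S100a4 being the fourth, all with higher means in AAV9-Rbm24 hearts. Such a p was found for 5546 of all 65956 clusters, in either direction. The groups did not overlap for 5 members, Lgals1 included, all higher in AAV9-Rbm24 hearts (7.01% of all clusters), and for no member in the other direction (7.71% of all clusters). For a single member with groups that do not overlap, the exact two-sided permutation test gives p = 0.1, the smallest that 3 hearts against 3 allow. The median log2 fold change of the 9 members was 0.43, where that of all clusters was -0.03, and 8 of 9 were above 0.

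**Figure D1:**
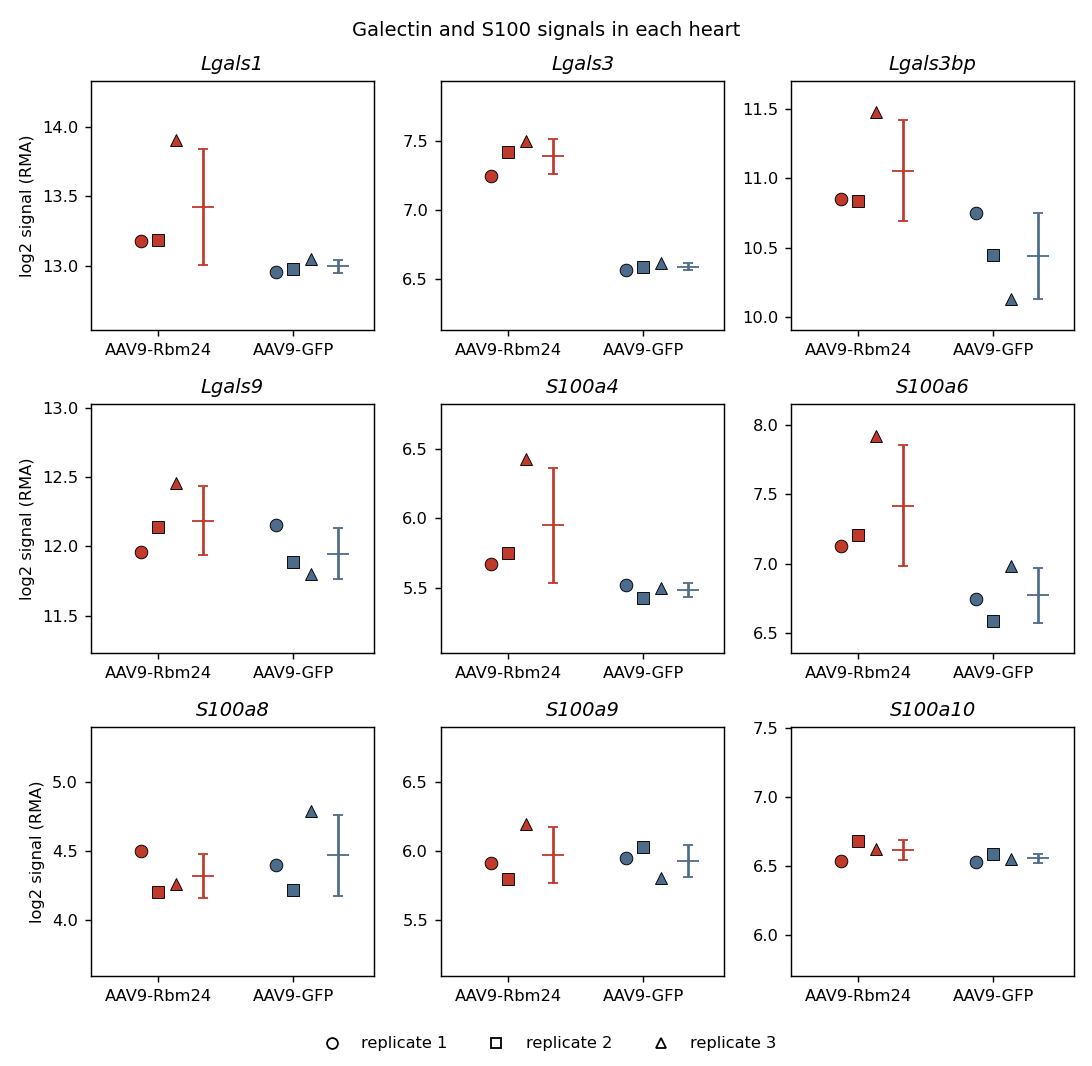
Log2 signal of each galectin and S100 member in every heart, with AAV9-Rbm24 left of AAV9-GFP and bars for the mean and SD of 3 hearts. Lgals3 has the widest gap between the groups (0.63), and in Lgals1, S100a4 and S100a6 a single AAV9-Rbm24 heart lies far above the other 2.

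Lgals1 encodes galectin-1, a small lectin that acts as a dimer. It had signals of 13.18, 13.18 and 13.91 in AAV9-Rbm24 hearts, against 12.96, 12.98 and 13.05 in AAV9-GFP hearts. The groups did not overlap, but AAV9-Rbm24 replicate 3 stood well above the other 2 and the nearest hearts were 0.13 apart. The log2 fold change of 0.43 (standard error 0.20, 95% interval -0.03 to 0.88) did not pass (adjusted p = 0.623 from limma).

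Lgals3bp encodes a secreted glycoprotein that binds galectin-3 and galectin-1. Its signals were 10.86, 10.84 and 11.48 in AAV9-Rbm24 hearts, against 10.75, 10.45 and 10.13 in AAV9-GFP hearts. The groups did not overlap, although the closest hearts differed by only 0.085 and the AAV9-GFP hearts were spread over a range nearly as wide as that of the AAV9-Rbm24 hearts. The log2 fold change was 0.61, or 1.53-fold (standard error 0.22, 95% interval 0.11 to 1.12, adjusted p = 0.478 from limma).

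Lgals9 encodes galectin-9, whose receptors include Tim-3. The signals were 11.96, 12.14 and 12.46 in AAV9-Rbm24 hearts, against 12.15, 11.89 and 11.80 in AAV9-GFP hearts. The groups overlapped, with AAV9-GFP replicate 1 above both lower AAV9-Rbm24 hearts. The difference was 0.24 on the log2 scale (standard error 0.16, 95% interval -0.12 to 0.60, adjusted p = 0.741 from limma), and the exact two-sided permutation test gave p = 0.3.

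S100a6 encodes calcyclin, a partner of annexins and of the calcyclin-binding protein Cacybp. Its signals were 7.13, 7.21 and 7.92 in AAV9-Rbm24 hearts, against 6.75, 6.59 and 6.98 in AAV9-GFP hearts. The groups were apart by 0.15, with AAV9-Rbm24 replicate 3 again the highest heart. The log2 fold change was 0.65, or 1.57-fold (standard error 0.22, 95% interval 0.14 to 1.15, adjusted p = 0.443 from limma).

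S100a4 encodes a protein also called fibroblast-specific protein, which binds non-muscle myosin. It had signals of 5.67, 5.75 and 6.43 in AAV9-Rbm24 hearts, against 5.52, 5.43 and 5.50 in AAV9-GFP hearts. The AAV9-Rbm24 hearts were higher throughout, by 0.15 at the nearest, and replicate 3 was alone in exceeding the 95th percentile of the background probe sets. The log2 fold change of 0.47, or 1.38-fold (standard error 0.19, 95% interval 0.02 to 0.92, adjusted p = 0.575 from limma), therefore rests on signals that mostly lie in the range of background.

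S100a8 and S100a9, the subunits of calprotectin, did not separate the groups. S100a8 had signals of 4.50, 4.20 and 4.26 in AAV9-Rbm24 hearts and 4.40, 4.22 and 4.79 in AAV9-GFP hearts, below the median of all clusters on all 6 arrays. S100a9 had signals of 5.92, 5.80 and 6.19 in AAV9-Rbm24 hearts and 5.95, 6.03 and 5.80 in AAV9-GFP hearts. In both genes the groups were intermixed, and just 1 of these signals, that of S100a9 in AAV9-Rbm24 replicate 1, exceeded the 95th percentile of the background probe sets. The log2 difference was -0.15 for S100a8 (standard error 0.16, 95% interval -0.52 to 0.23, adjusted p = 0.861 from limma). For S100a9 it was 0.04 (standard error 0.13, 95% interval -0.26 to 0.35, adjusted p = 0.961 from limma). Signals this dim limit what the arrays could detect of either gene.

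S100a10, the light chain of the annexin A2 complex at the cell membrane, had the narrowest range of any member over the 6 hearts. Its signals were 6.54, 6.68 and 6.63 in AAV9-Rbm24 hearts and 6.53, 6.59 and 6.55 in AAV9-GFP hearts. These signals were dim, and only 2 of those in AAV9-GFP hearts exceeded the 95th percentile of the background probe sets on their array. The groups overlapped, and the log2 difference of 0.06 had a 95% interval of -0.16 to 0.28 (standard error 0.09, adjusted p = 0.915 from limma), whose upper end lies below the 0.80 of Lgals3.

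The upward differences were largest in 1 heart. AAV9-Rbm24 replicate 3 exceeded the mean of the other 2 AAV9-Rbm24 hearts by 0.73 for Lgals1, 0.63 for Lgals3bp, 0.72 for S100a4 and 0.75 for S100a6. For Lgals3 the same heart exceeded them by 0.16, so Lgals3 was spread less between these hearts. Lgals9 and S100a9 were 0.41 and 0.34 higher there, while S100a10 (0.02) and S100a8 (-0.09) differed little there. The mean of the macrophage markers was 0.65 higher in that heart than in the other 2 AAV9-Rbm24 hearts and that of the fibroblast markers 0.70 higher, whereas the neutrophil markers differed by -0.04.

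Without AAV9-Rbm24 replicate 3, the log2 fold changes were 0.74 for Lgals3, 0.40 for Lgals3bp and for S100a6, 0.23 for S100a4 and 0.19 for Lgals1. Lgals3 alone met the thresholds of the methods in that comparison, where 867 of all clusters were higher at them, against 813 with every heart. AAV9-GFP replicate 2 stood apart from the other arrays on the first principal component (37.4% of the variance, where it scored -64.3 and the other AAV9-GFP hearts -9.7 and 0.8). Without it Lgals3 differed by 0.79, Lgals3bp by 0.62, S100a6 by 0.55, S100a4 by 0.44 and Lgals1 by 0.42 on the log2 scale. Lgals3 alone again met the thresholds of the methods, where 779 of all clusters were higher at them. Rbm24 itself was 1.10 higher in log2 signal in AAV9-Rbm24 hearts (adjusted p = 0.0607 from limma, standard error 0.17) with groups that did not overlap, and signal from the vector and from the mouse's own gene cannot be told apart.

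**Figure D2:**
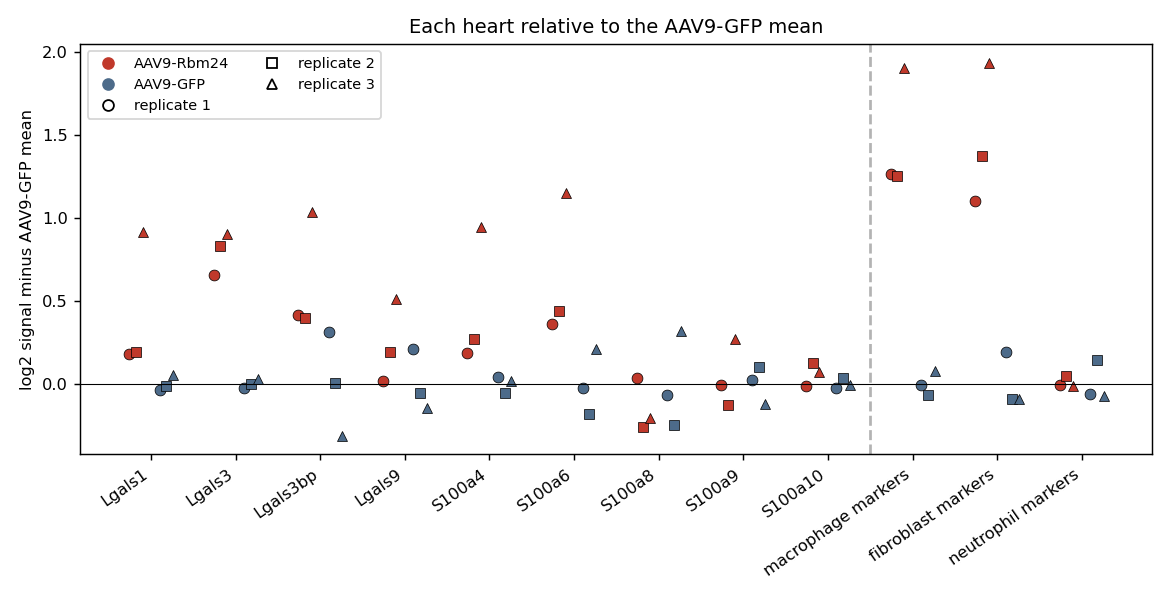
Difference of each heart's log2 signal from the mean of the 3 AAV9-GFP hearts, for the members and for the mean of the macrophage, fibroblast and neutrophil markers, with AAV9-Rbm24 hearts left of AAV9-GFP hearts. AAV9-Rbm24 replicate 3 lies highest for Lgals1, S100a4 and S100a6 (0.91, 0.95 and 1.15) and for the macrophage and fibroblast markers (1.91 and 1.94).

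No other listed gene of either family passed the test. Of 7 other galectin genes, the 6 with a cluster of their own were Lgals2, Lgals4, Lgals7, Lgals8, Lgals12 and Lgalsl (Lgals6 had none), and all 10 other S100 genes listed had one. None of these 16 genes passed either threshold in limma, and none had an unadjusted p under 0.05 (0.218 to 0.983). Their log2 fold changes ran from -0.58 to 0.15 with a median of 0.03, and 10 were above 0. The signals of 8 of them, Lgals2, Lgals7, Lgals12, S100a3, S100a5, S100a7a, S100g and S100z, were below the array median in all 6 hearts.

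Lgals4, a galectin known from the gut epithelium, gave the value farthest from 0. Its signals were 9.32, 9.20 and 8.02 in AAV9-Rbm24 hearts, against 9.94, 9.77 and 8.58 in AAV9-GFP hearts. Replicate 3 was the lowest heart of each group, the groups overlapped, and the log2 difference of -0.58 had a standard error of 0.44. Lgals8 (0.10) and the galectin-related gene Lgalsl (0.11) stayed near 0.

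S100a1, the S100 protein of cardiomyocytes that acts on calcium handling, had signals of 14.31, 14.29 and 14.03 in AAV9-Rbm24 hearts, against 13.92 to 14.26 in AAV9-GFP hearts. The groups overlapped and the log2 difference was 0.15 (standard error 0.13, adjusted p = 0.810 from limma). S100b, known from glia, differed by 0.07, S100a13 and S100a14 by 0.08 each, and S100a16 by -0.01.

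Dim signals limited the comparison with the neighbours of S100a4 and S100a6. The RefSeq gene order on chromosome 3 is S100a3, S100a2, S100a4, S100a5, S100a6, S100a7a, S100a8 and S100a9. S100a5 differed by -0.01, S100a3 by -0.01 and S100a2, which was not in the gene lists, by -0.03 on the log2 scale. S100a4 and S100a6 differed by 0.47 and 0.65. On the far side of S100a6, S100a7a differed by -0.16. On all 6 arrays, S100a3, S100a5 and S100a7a were below the array median and within the 95th percentile of the background probe sets. A fall or a small rise in these genes could therefore be missed.

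**Figure D3:**
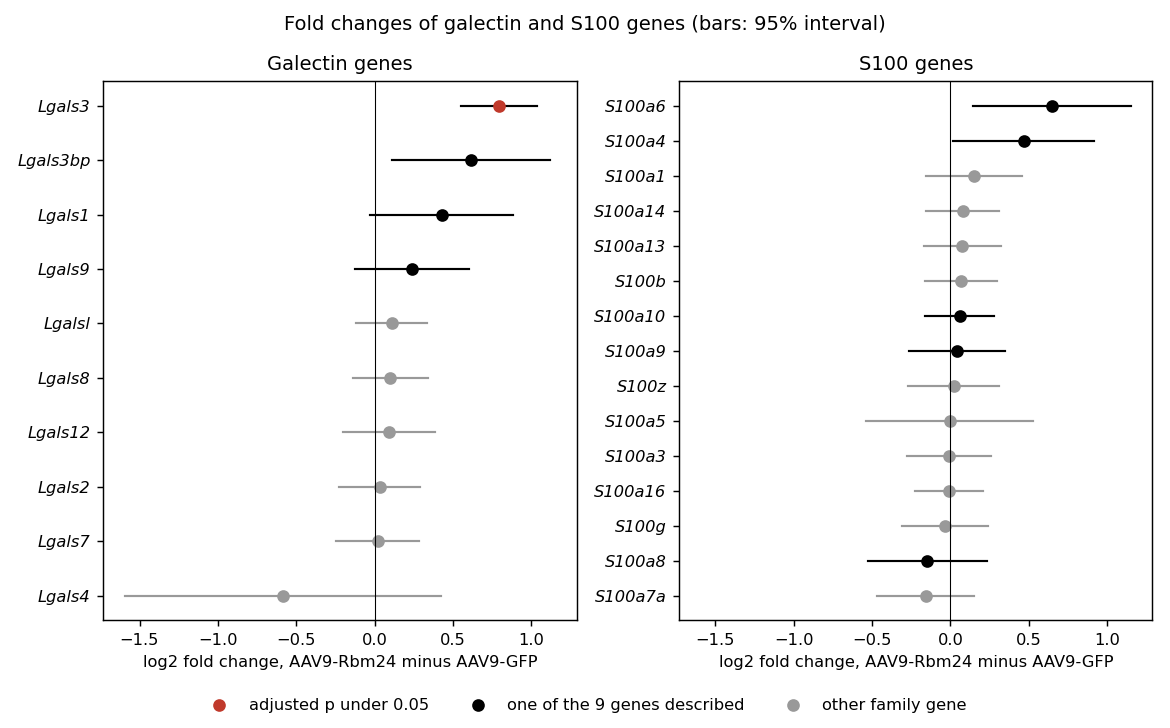
Log2 fold change of AAV9-Rbm24 over AAV9-GFP for the 9 members and the 16 other listed galectin and S100 genes, with 95% intervals from limma and red for an adjusted p under 0.05. Lgals3 (0.80) is the only red point, and the 16 other genes lie between -0.58 and 0.15.

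Of 11 listed surface and intracellular partners of galectins, Ptprc and Cd44 rose. All 11 had log2 fold changes above 0 (median 0.42, against -0.03 over all clusters), 9 had groups that did not overlap (7.01% of all clusters were apart and higher), and 2 passed the adjusted threshold (0.241% of all clusters were higher). Ptprc, the leukocyte phosphatase CD45 and a glycoprotein that galectin-1 binds, had signals of 8.57, 8.70 and 9.0 in AAV9-Rbm24 hearts, against 7.49, 7.32 and 7.35 in AAV9-GFP hearts. The groups were far apart, and the log2 fold change, 1.37, passed (adjusted p = 0.0177 from limma, standard error 0.13). Its call held without AAV9-Rbm24 replicate 1 or 3 and was lost without any other heart (adjusted p up to 0.119 from limma).

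Cd44, the hyaluronan receptor and a ligand of galectin-3 and galectin-9, had signals of 8.33, 8.28 and 8.35 in AAV9-Rbm24 hearts, against 7.68, 7.29 and 7.35 in AAV9-GFP hearts. Its log2 fold change was 0.88 (adjusted p = 0.0484 from limma, standard error 0.13), almost equal in the 3 AAV9-Rbm24 hearts. The call was lost without each heart in turn (adjusted p = 0.0788 to 0.182 from limma). Havcr2, which encodes the galectin-9 receptor Tim-3, had signals of 6.33, 6.33 and 6.84 in AAV9-Rbm24 hearts, against 5.27, 5.56 and 5.40 in AAV9-GFP hearts. Its groups were apart by more than the spread in either, with a log2 fold change of 1.09 (standard error 0.16), but it fell short of the threshold (adjusted p = 0.0569 from limma). No AAV9-GFP signal of Havcr2 and 2 of the 3 AAV9-Rbm24 signals exceeded the 95th percentile of the background probe sets, so the size of its difference is uncertain. The integrin gene Itgam met the thresholds of the methods (1.34, standard error 0.31, adjusted p = 0.211 from limma). The lysosomal membrane glycoproteins Lamp1 and Lamp2 differed by 0.16 and 0.34 and did not pass.

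The partners of S100 proteins were mixed. Of 14 listed, 11 had a cluster of their own, and the median log2 fold change was 0.08. At the adjusted threshold 1 was higher (0.241% of all clusters were). Tlr4, Anxa1 and Anxa2 met the thresholds of the methods, all higher (1.23% of all clusters). The same 3 had groups apart and higher (7.01% of all clusters). Tlr4, a receptor of calprotectin better known for sensing lipopolysaccharide, had signals of 10.07, 10.29 and 10.27 in AAV9-Rbm24 hearts, against 8.70, 8.37 and 9.12 in AAV9-GFP hearts. The groups were widely apart, and the log2 fold change, 1.48, passed (adjusted p = 0.0310 from limma, standard error 0.19). The call held only without AAV9-GFP replicate 3 when hearts were left out in turn (adjusted p = 0.0376 to 0.143 from limma). Ager, the RAGE receptor of S100 proteins, differed by -0.11 (standard error 0.10, 95% interval -0.34 to 0.12, adjusted p = 0.818 from limma). Its signal was within the 95th percentile of the background probe sets on all 6 arrays. A fall or a small rise in Ager could therefore be missed.

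Anxa2, the annexin that pairs with S100a10, had signals of 9.43, 9.60 and 10.73 in AAV9-Rbm24 hearts, against 9.27, 8.75 and 9.14 in AAV9-GFP hearts. The groups did not overlap, with the nearest hearts 0.16 apart, and AAV9-Rbm24 replicate 3 stood above all other hearts, as in S100a6. The log2 fold change of 0.86, or 1.82-fold (standard error 0.33), did not pass the adjusted threshold (adjusted p = 0.512 from limma). Anxa1, a phospholipid-binding annexin that pairs with S100a11, had signals of 9.24, 9.51 and 10.18 in AAV9-Rbm24 hearts, against 8.26, 7.89 and 8.43 in AAV9-GFP hearts. Its groups did not overlap, and the log2 fold change of 1.45 fell short of the threshold (adjusted p = 0.0854 from limma, standard error 0.25). Cacybp, the partner of S100a6, differed by 0.08.

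Markers of the cells known to make these proteins were measured in the same hearts, and their part in the member values was not tested. Of 15 macrophage markers, 5 rose (Adgre1, C1qa, C1qb, Mpeg1 and Lyz2, beside 0.241% of all clusters), none fell at the adjusted threshold, and the mean of the list was 9.11 to 9.77 in AAV9-Rbm24 hearts against 7.79 to 7.94 in AAV9-GFP hearts. The haemoglobin scavenger receptor gene Cd163 was the only one of them lower in every AAV9-Rbm24 heart (-0.42, adjusted p = 0.392 from limma). Of 9 fibroblast markers with a cluster of their own, 3 rose (Col1a2, Col3a1 and Lum, all matrix genes, beside 0.241% of all clusters), with list means of 11.57 to 12.41 in AAV9-Rbm24 hearts and 10.38 to 10.67 in AAV9-GFP hearts. Tcf21, a transcription factor that marks cardiac fibroblasts, differed by -0.03 with overlapping groups (adjusted p = 0.979 from limma). The median log2 fold change was 1.28 for the macrophage list and 1.51 for the fibroblast list. With a heart left out, the macrophage list had 5 calls without AAV9-Rbm24 replicate 3 and 0 without any other heart. The fibroblast list had 4 without AAV9-Rbm24 replicate 3, 1 without AAV9-Rbm24 replicate 1 and 0 otherwise. Calls fell over all clusters too, from 159 higher to 90 without AAV9-Rbm24 replicate 3. They numbered 35 without AAV9-Rbm24 replicate 1 and 0 to 28 without any other heart. The called markers stayed higher throughout, with log2 fold changes of 1.83 to 2.17 for Adgre1 and 1.98 to 2.63 for Col1a2, for example.

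None of 11 neutrophil markers passed the adjusted threshold in limma. At an unadjusted p under 0.05 (5546 of 65956 clusters), 2 of the 11 were higher (Csf3r, 0.32, and Ly6g, 0.31) and 1 was lower (Ngp, -0.28). Their mean was 4.93 to 4.99 in AAV9-Rbm24 hearts and 4.87 to 5.09 in AAV9-GFP hearts, and 7 of them, Elane, Mpo, Camp, Ltf, Ngp, Mmp8 and Mmp9, were below the array median in all 6 hearts, like S100a8. No neutrophil or lymphocyte marker exceeded the 95th percentile of the background probe sets on any of the 6 arrays. A fall or a small rise in these markers could therefore be missed. The 8 lymphocyte markers had a mean of 5.17 to 5.31 in AAV9-Rbm24 hearts and 5.15 to 5.38 in AAV9-GFP hearts, with no call in limma and 1 higher at an unadjusted p under 0.05. Cardiomyocyte markers, which define the labelled tissue, had list means of 17.59 to 17.65 in AAV9-Rbm24 hearts and 17.67 to 17.76 in AAV9-GFP hearts, with no call and 1 lower at that unadjusted p. Actc1 and Pln had identical signals in the 3 AAV9-Rbm24 hearts, at or near the top of the array's range, so the list mean rests in part on saturated probes. Tnni3 (-0.20), Myl3 (-0.18) and Ryr2 (-0.36), 3 of the 9 listed, were lower in every AAV9-Rbm24 heart than in any AAV9-GFP heart. Groups were apart and lower for 7.71% of all clusters. None of these 3 genes passed (adjusted p = 0.510 to 0.693 from limma), and no cardiomyocyte marker had groups apart and higher. Endothelial (median 0.06), smooth muscle and pericyte (0.02) markers and the erythroid gene Alas2 (-0.05) gave no call either, and none at that unadjusted p.

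**Figure D4:**
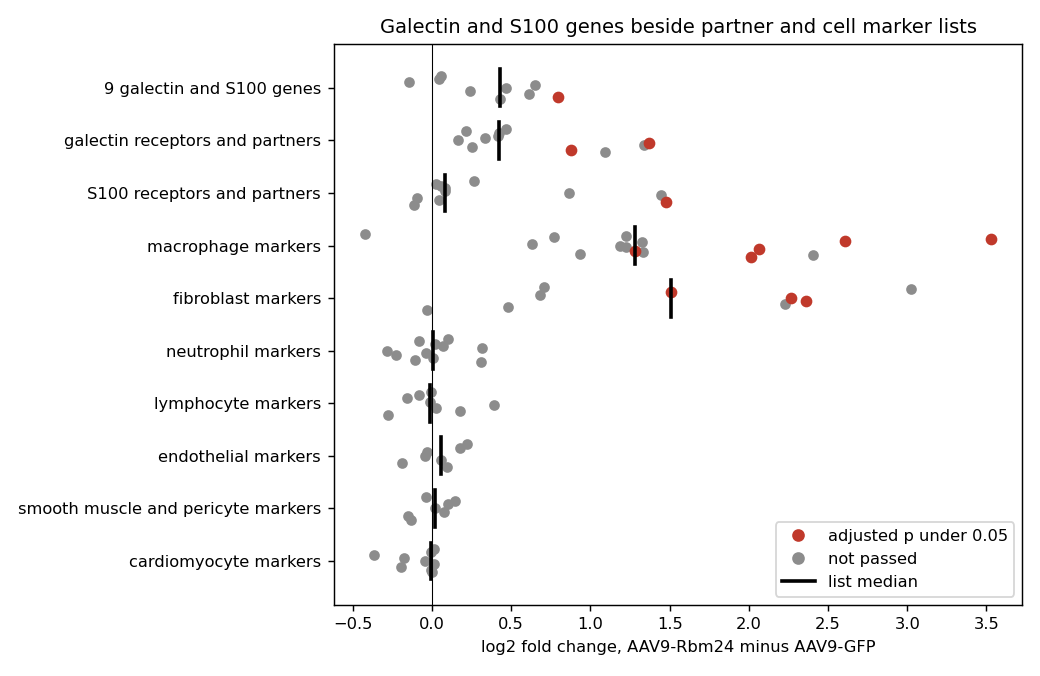
Log2 fold changes of AAV9-Rbm24 over AAV9-GFP for the genes of each list, 1 point per gene, with a line at the list median and red for an adjusted p under 0.05. The macrophage and fibroblast lists (medians 1.28 and 1.51) lie to the right of the members (0.43), and the neutrophil list lies at 0.01.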

How the data were processed

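Each array's deposited values are log2 signals of transcript clusters, which the authors made, by the submitters' processing notes, with RMA, which subtracts background, normalizes between arrays and summarizes probes, in Affymetrix Expression Console. Their versions are not given in the sources read here, nor is the genome build, so no cluster coordinates are reported. Signals of different genes come from different probes and were not compared.

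After 6732 of 72688 rows (controls) were left out, 65956 clusters were tested with no filter on dim signals. The platform annotation gave 30638 of them 1 symbol, 2176 several and 33142 none. Symbols were updated through RefSeq, which altered none of the members. The brightest cluster by mean over all arrays stood for a gene that had several. The groups were compared in R 4.3.3 by lmFit and eBayes of limma 3.58.1, with Benjamini-Hochberg adjustment over all clusters and a threshold of 0.05. In all, 5546 clusters had an unadjusted p under 0.05. The number of arrays limits the precision. Array medians were 5.49 to 5.67. The 95th percentile of the background probe sets was 5.92 to 6.61.

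The text names all members, the other galectin and S100 genes listed, called members of the partner and marker lists and some of the 3 genes of a list with the smallest p. Itgam, Lamp1, Lamp2, Ager, Cacybp, Cd163, Tcf21, Actc1, Pln and S100a2 were named after their values were seen. The members and lists were chosen with earlier results of these data known. The fit was tested on simulated data. Alternatives were signal minimums of 6 and 8, 1-symbol clusters alone, an intensity trend, robust variances, requantiling, median centring, array weights, a replicate block, each heart left out, an analysis of variance and the mean of a gene's clusters. Promoters came from RefSeq (GRCm38.p6).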

Additional observations from a re-analysis of the deposited data

How the results depend on the processing

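The 9 members were recomputed under 17 alternatives. Of 144 log2 fold changes 141 kept their direction. Only requantiling, median centring, array weights and a heart left out could alter a member's fold change, so the other alternatives kept it by construction. The exceptions were dim genes with a heart left out, where S100a8 ran from -0.27 to 0.014 and S100a9 from -0.070 to 0.13. Without AAV9-Rbm24 replicate 3 S100a9 was at -0.070, and without AAV9-GFP replicate 3 S100a9 was at -0.019 and S100a8 at 0.014. Lgals3, the 1 member higher at the adjusted threshold, passed in 8 of its 16 alternatives, with adjusted p from 0.0142 to 0.364 (limma, or the methods' analysis of variance at the upper end). The count was 0 with the replicate number as a block (adjusted p = 0.0812), with the methods' analysis of variance, with a minimum mean log2 signal of 8, which Lgals3 did not reach, and with each heart left out (0 to 0). Over all clusters, a heart left out gave 0 to 90 calls higher and 0 to 4 lower, the block 76 and 7, and the analysis of variance 0 and 0, against 159 and 17. Members higher at the thresholds of the methods, 3 in the report, numbered 1 with array weights and with the analysis of variance (Lgals3 in both). They numbered 1 to 4 with a heart left out (1 without AAV9-Rbm24 replicate 3 or AAV9-GFP replicate 2). Only Lgals1, Lgals3bp and Lgals9 reached a minimum of 8. Of these, 1 (Lgals3bp) met the thresholds of the methods and 2 (Lgals1 and Lgals3bp) had groups that did not overlap, against 5 in the report. A minimum cannot alter whether a gene's groups overlap, so this smaller count reflects only the members left out. Of the other lists' call counts, 167 of 204 stayed within 1.5 times and 33 of the 37 that did not were smaller. Most of the 167 came from lists with no call in the report or under any alternative, so they do not measure stability. All 37 came from the galectin partner, S100 partner, macrophage and fibroblast lists, the only lists with calls.

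Replicate numbers are no known pairing. Deviations of same-numbered hearts correlated at 0.027, 0.096 and 0.152, and those of differently numbered hearts at -0.122 to 0.033. AAV9-Rbm24 replicates 2 and 3 correlated best with the AAV9-GFP heart of their own number. AAV9-Rbm24 replicate 1 correlated best with AAV9-GFP replicate 2 (0.033).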
